A study of Mus musculus with 20 samples.

Results

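The miRNAs described here are the 4 products of the miR-106b, miR-93 and miR-25 cluster that were listed for this work by name: mmu-miR-106b-5p, mmu-miR-106b-3p, mmu-miR-93-5p and mmu-miR-25-3p, written from here on without the prefix that marks mouse. Each had 1 row in the count table, and all 4 of 4 had enough reads to be tested, among 360 tested miRNAs, 1191 with a read and 1915 names in all. Small RNA was sequenced from the serum of female mice in 20 libraries, 5 in each of 4 groups: young normal mice and young Ames dwarf mice of 5 to 6 months, and old normal mice and old Ames dwarf mice of 21 to 22 months. Ames dwarf mice make no growth hormone, prolactin or thyrotropin, stay small and live longer than their normal littermates. For all 20 libraries the strain label reads Ames dwarf with a heterogeneous background, normal mice included, and no treatment is named. The labels do not say whether the 5 libraries of a group came from separate mice, so the p-values measure the spread between libraries, which may in part be technical.

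MicroRNAs are short RNAs that guide Argonaute proteins to messenger RNAs, mostly through pairing of the seed, the bases near their 5′ end. The cluster lies in an intron of Mcm7, a subunit of the helicase that unwinds DNA at replication, and is a paralog of the miR-17 to miR-92 cluster. In tissues it is known for targeting cell cycle inhibitors and pro-apoptotic genes, among them Cdkn1a and Bcl2l11, and for its expression in dividing cells and in neural stem cells. Serum holds miRNAs that blood cells and organs release, bound to proteins or in vesicles.

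On the GRCm38 build the 3 hairpins lie on the minus strand of chromosome 5, within Mcm7 (chr5:138164583-138172422, GENCODE M21). Mir106b (chr5:138165737-138165818) comes first in the direction of transcription, then Mir93 (chr5:138165523-138165610) and Mir25 (chr5:138165321-138165404), with 126 and 118 bases between them and 498 bases from end to end. All 3 sit in intron 13 of the protein-coding transcript Mcm7-201, which has 15 exons; that intron is 748 bases long. In the annotation, Mir93 and Mir25 also overlap an exon of the non-coding transcript Mcm7-202, in which an intron is retained. RefSeq gave mature sequences for 4 of 4 members (build GRCm38.p6). The hairpins are shown because each gives a product from both arms, and the annotated mature arms are in capitals, 5′ to 3′.
Mir106b: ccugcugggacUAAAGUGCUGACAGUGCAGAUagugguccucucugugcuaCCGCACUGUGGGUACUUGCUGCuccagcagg
Mir93: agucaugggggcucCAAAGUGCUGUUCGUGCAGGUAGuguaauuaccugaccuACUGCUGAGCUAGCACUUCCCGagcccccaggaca
Mir25: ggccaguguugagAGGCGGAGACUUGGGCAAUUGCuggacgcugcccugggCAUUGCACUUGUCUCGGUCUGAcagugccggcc

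The mature sequences fall into 3 seed groups, and each is shown with its seed (bases 2 to 8) in capitals, beside the most abundant relatives from the paralog cluster. miR-106b-5p and miR-93-5p share a seed with miR-17-5p and miR-20a-5p.
miR-106b-5p: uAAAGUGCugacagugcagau
miR-93-5p: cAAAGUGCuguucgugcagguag
miR-17-5p: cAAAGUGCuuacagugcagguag
miR-20a-5p: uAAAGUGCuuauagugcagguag
miR-25-3p shares its seed with miR-92a-3p, the last miRNA of the paralog cluster.
miR-25-3p: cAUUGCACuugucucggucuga
miR-92a-3p: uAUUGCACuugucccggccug
The seed of miR-106b-3p was held by no other name in the count table that has a RefSeq sequence.
miR-106b-3p: cCGCACUGuggguacuugcugc
Compared base by base from the 5′ end without gaps, miR-106b-5p was identical to miR-93-5p at 16 of 21 positions and to miR-17-5p at 18 of 21. miR-25-3p was identical to miR-92a-3p at 18 of 21 positions and to miR-93-5p at 9 of 22.

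The 20 libraries held 1343137 to 4710263 counts, and no pair of libraries was identical. The 4 members together made up a median of 3.35% of all counts in a library (range 2.01% to 4.22%). miR-25-3p was the most abundant member, with 1298345 reads over all libraries and the 7th place among all names. miR-93-5p followed with 305058 reads (17th), then miR-106b-5p with 41946 (53rd) and miR-106b-3p with 36673 (65th). The lowest count of any member in any library was 426 reads, for which the counting error is 4.85% of the count, below the spread between libraries of each group. The other arms of the same hairpins were rare: miR-93-3p had 3123 reads and miR-25-5p had 568. In Mir93 and Mir25 1 arm thus held nearly all reads, while the 2 arms of Mir106b were present at similar numbers.

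The authors' deposited miRDeep2 report, which pools all libraries, gives a consensus of the reads for each arm. Its 5′ ends matched RefSeq for all 4 members (the shares of reads with shifted ends were not measured). Its 3′ ends matched RefSeq for miR-25-3p and miR-106b-5p, while the consensus of miR-93-5p was 21 bases long against 23, and that of miR-106b-3p was 20 against 22. Both shortened forms lacked 2 bases at the 3′ end. For Mir106b the authors' deposited report took the 3p arm as the mature form.

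No member differed between dwarf and normal mice, or between ages, at an adjusted p under 0.05 in the edgeR test over all 360 miRNAs. This held for each of the 4 pairwise comparisons and for the difference of the age effects. The same threshold called 0% of tested miRNAs in young dwarf against young normal serum, 26.4% in old dwarf against old normal, 15.6% in old normal against young normal, 0.556% in old dwarf against young dwarf and 0.556% for the difference of the age effects. The member with the lowest p in any comparison was miR-106b-5p, lower in old than in young normal serum with an unadjusted p of 0.0176; 38.3% of all miRNAs had an unadjusted p under 0.05 there. At that unadjusted threshold the counts were 0 of 4 in young dwarf against young normal serum, 0 of 4 in old dwarf against old normal, 1 of 4 in old normal against young normal, 0 of 4 in old dwarf against young dwarf and 0 of 4 for the difference of the age effects. The shares of all miRNAs were 7.78%, 45.3%, 38.3%, 3.89% and 15.8% in the same order. DESeq2 called 1 member, miR-106b-5p, in old dwarf against old normal serum, where it called 38.2% of 356 miRNAs with an adjusted p, and in old normal against young normal, where it called 32.9%. It called 0 members in young dwarf against young normal (1.69% of all), in old dwarf against young dwarf (0.562%) and for the difference of the age effects (5.62%). In 0 of 4 members did the libraries of 2 compared groups fail to overlap, while 1.94%, 12.5%, 7.78% and 1.67% of all miRNAs did not overlap in the 4 pairwise comparisons, in the order above.

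**Figure D1:**
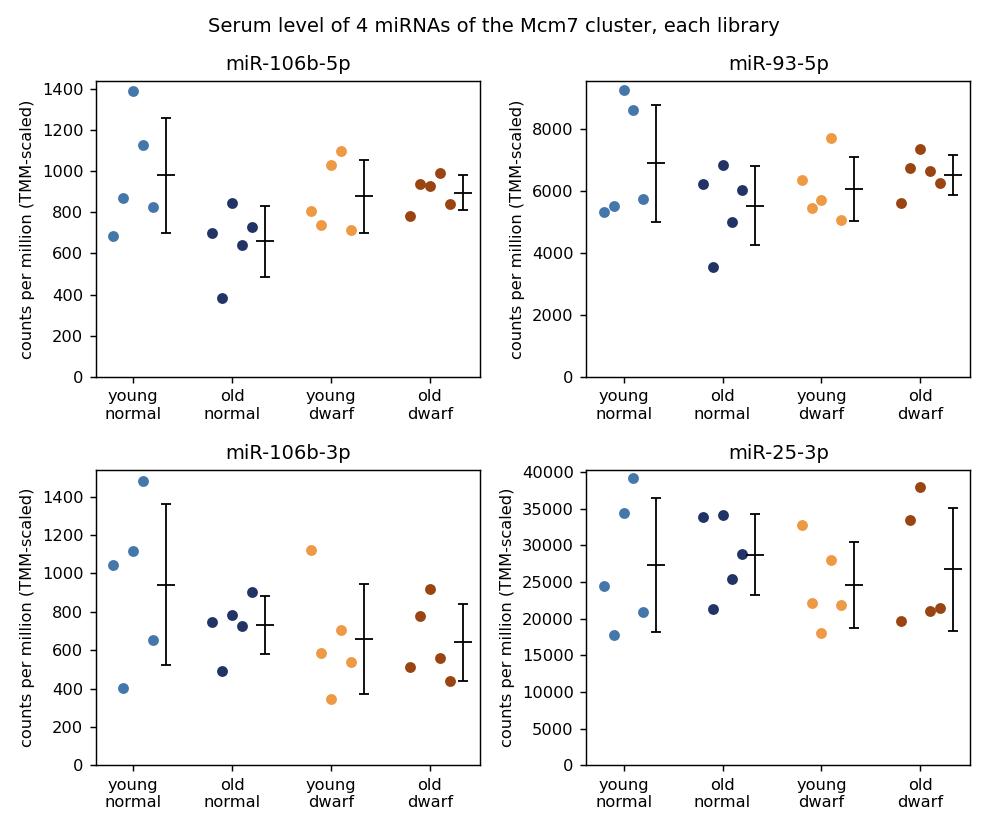
Level of each member (CPM on TMM-scaled library sizes, linear axis from 0) in every library, by group; the horizontal mark is the mean of 5 libraries and the bar its SD. For miR-106b-5p the old normal mean of 659 is the lowest of the 4 groups, and the ranges of all groups overlap for all 4 members.

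miR-106b-5p, of the miR-17 seed group, was lowest in old normal serum. Levels are CPM, a library's counts scaled to a common size with edgeR's TMM factors, and are given in replicate order. In young normal serum they were 686, 869, 1389, 1129 and 827 (mean 980 ± 279, SD, n = 5). In old normal serum they were 699, 382, 847, 642 and 726 (mean 659 ± 172, n = 5), and 2 of these 5 libraries lay below every young normal library. Both dwarf groups lay between these means. In young dwarf serum the levels were 804, 741, 1029, 1101 and 713 (mean 877 ± 176, n = 5). In old dwarf serum they were 784, 937, 926, 993 and 840 (mean 896 ± 83.2, n = 5), and 3 of these lay above every old normal library. The log2 fold change was -0.57 (SE 0.22, 95% interval -1.03 to -0.11, edgeR adjusted p = 0.0722) for old against young normal and 0.44 (SE 0.22, 95% interval -0.02 to 0.90, adjusted p = 0.126) for old dwarf against old normal. Neither passed the adjusted threshold. Without young normal replicate 1 the fold change between the normal ages was -0.68 with an edgeR adjusted p of 0.031, which passed; 33.4% of all miRNAs were called in that fit. For young dwarf against young normal the log2 fold change was -0.16 (SE 0.22, 95% interval -0.62 to 0.30), and for old against young dwarf it was 0.03 (SE 0.22, 95% interval -0.43 to 0.49). The age effect was 0.60 higher on the log2 scale in dwarf than in normal mice (SE 0.31, 95% interval -0.05 to 1.25, edgeR adjusted p = 0.330).

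miR-93-5p, which has the same seed, was also lower on average in old than in young normal serum, at several times the level of miR-106b-5p. In young normal serum its CPM were 5310, 5525, 9270, 8612 and 5749 (mean 6893 ± 1890, n = 5), with replicates 3 and 4 well above the other three. In old normal serum they were 6237, 3561, 6849, 4987 and 6022 (mean 5531 ± 1290, n = 5). Old normal replicate 2, the library with the lowest miR-106b-5p, was also the lowest of all 20 for miR-93-5p. In young dwarf serum the levels were 6363, 5438, 5721, 7705 and 5076 (mean 6061 ± 1033, n = 5), and in old dwarf serum they were 5624, 6736, 7369, 6634 and 6246 (mean 6522 ± 644, n = 5). Every group overlapped every other. The log2 fold change was -0.32 (SE 0.20, edgeR adjusted p = 0.237) for old against young normal, 0.24 (SE 0.20, adjusted p = 0.374) for old dwarf against old normal, -0.19 (SE 0.20, adjusted p = 0.792) for young dwarf against young normal and 0.11 (SE 0.20, adjusted p = 0.997) for old against young dwarf.

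miR-106b-3p, the sister arm of miR-106b-5p with a seed of its own, varied most among the members. In young normal serum its CPM were 1046, 405, 1119, 1484 and 653 (mean 942 ± 421, n = 5), a range that held all 5 old normal libraries, at 746, 491, 785, 729 and 905 (mean 731 ± 151, n = 5). In young dwarf serum they were 1120, 584, 348, 706 and 538 (mean 659 ± 288, n = 5), and in old dwarf serum 514, 780, 920.0, 557 and 438 (mean 642 ± 201, n = 5). The dwarf means were the lowest, but all ranges overlapped. The log2 fold change was -0.51 (SE 0.33, 95% interval -1.20 to 0.17, edgeR adjusted p = 0.670) for young dwarf against young normal, -0.36 (SE 0.33, adjusted p = 0.399) for old against young normal, -0.19 (SE 0.33, adjusted p = 0.674) for old dwarf against old normal and -0.04 (SE 0.33, adjusted p = 0.997) for old against young dwarf.

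miR-25-3p, of the miR-92 seed group, had means in old and young normal serum that differed by less than their SDs. In young normal serum its CPM were 24415, 17725, 34412, 39240 and 20898 (mean 27338 ± 9140, n = 5), and in old normal serum 33828, 21312, 34176, 25366 and 28884 (mean 28713 ± 5523, n = 5). In young dwarf serum they were 32833, 22172, 17995, 27946 and 21905 (mean 24570 ± 5826, n = 5), and in old dwarf serum 19744, 33474, 37906, 21060 and 21406 (mean 26718 ± 8362, n = 5). In young normal and old dwarf serum 2 libraries lay well above the other three. The log2 fold changes ran from -0.15 (SE 0.25, young dwarf against young normal) to 0.12 (SE 0.25, old against young dwarf), and the 95% intervals allowed changes of -0.45 to 0.59 between the normal ages and -0.62 to 0.42 between the old genotypes. The difference of the age effects, dwarf minus normal, was 0.05 for miR-25-3p (SE 0.35, edgeR adjusted p = 0.943), 0.42 for miR-93-5p (SE 0.29, adjusted p = 0.495) and 0.33 for miR-106b-3p (SE 0.46, adjusted p = 0.724). For all 4 members the value was above 0 and none passed; with upper-quartile factors, with the red cell index as a covariate or with some single libraries left out, the value of miR-25-3p was below 0, and with that covariate also the value of miR-93-5p.

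**Figure D2:**
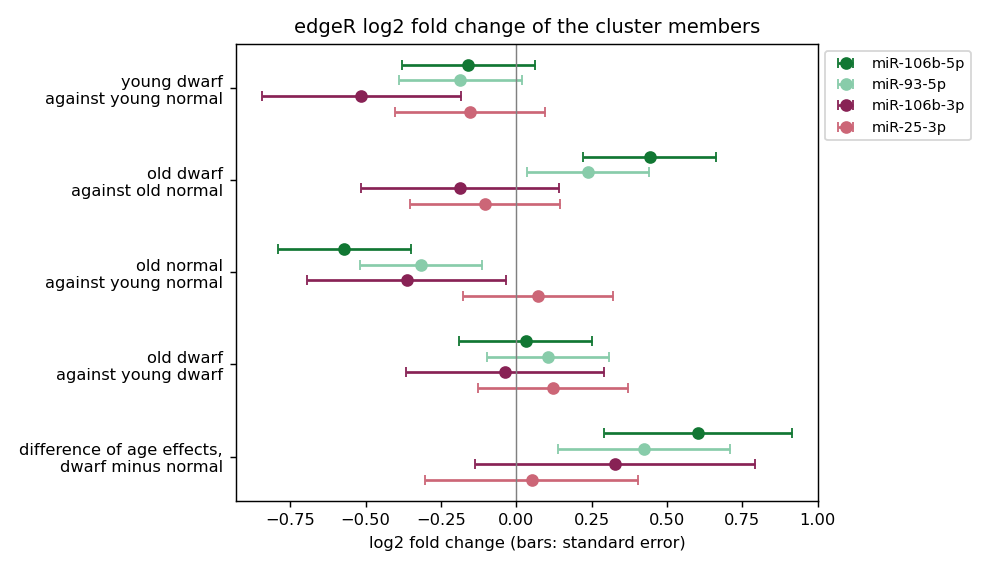
Log2 fold change of each member in the 4 pairwise comparisons and for the difference of the age effects (x axis), with the standard error from the edgeR fit as bars. miR-106b-5p lies at -0.57 for old against young normal and at 0.44 for old dwarf against old normal, and miR-25-3p lies near 0 in both.

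The members had a smaller median change than all 360 tested miRNAs. Their median absolute log2 fold change was 0.34 for old against young normal, beside 0.64 over all tested miRNAs, and 0.21 beside 0.72 for old dwarf against old normal. The SD of log2 CPM within groups was 0.30 for miR-93-5p, 0.34 for miR-106b-5p, 0.39 for miR-25-3p and 0.55 for miR-106b-3p, beside a median of 0.60 over all tested miRNAs. The tested miRNAs include far rarer ones than the members, which ranked 7th, 17th, 53rd and 65th by reads. No comparison at matched abundance was made, so these medians do not show that the members were unusually stable.

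The fold changes depend on how libraries are scaled. With plain library totals in place of TMM factors the median log2 fold change over all miRNAs moved to -0.42 for old against young normal and 0.23 for old dwarf against old normal. edgeR then called miR-106b-5p (-1.003, adjusted p = 0.0092), miR-93-5p (-0.73, adjusted p = 0.0093) and miR-106b-3p (-0.69, adjusted p = 0.0295) lower in old normal serum, where it called 29.4% of all miRNAs. Under the same scaling the difference between the old genotypes was called for miR-106b-5p (0.73, adjusted p = 0.0322) and miR-93-5p (0.51, adjusted p = 0.0407), higher in the dwarf, beside 33.1% of all miRNAs. With DESeq2 the value for miR-106b-5p was -0.63 (adjusted p = 0.0144) between the normal ages and 0.57 (adjusted p = 0.0197) between the old genotypes. Measured as a share of all counts, the 4 members summed to 3.72% ± 0.41 (young normal), 2.81% ± 0.49 (old normal), 3.97% ± 0.19 (young dwarf) and 3.21% ± 0.15 (old dwarf; SD, n = 5 each). In bulk serum, a release from fewer cells and less release from each cell cannot be told apart.

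Ratios between members within a library do not depend on the scaling. They are given as log2 of the counts plus 1, as descriptions without a test. The ratio of miR-25-3p to miR-106b-5p was 5.15, 4.35, 4.63, 5.12 and 4.66 in young normal serum and 5.60, 5.80, 5.33, 5.30 and 5.31 in old normal serum. These 2 groups did not overlap, and the means were 4.78 ± 0.35 and 5.47 ± 0.22 (SD, n = 5), which on the linear scale were 27.5 and 44.3 reads of miR-25-3p for each read of miR-106b-5p. In young dwarf serum the ratio was 5.35, 4.90, 4.13, 4.67 and 4.94 (mean 4.80 ± 0.45), and in old dwarf serum it was 4.65, 5.16, 5.35, 4.41 and 4.67 (mean 4.85 ± 0.39). The dwarf means were close to the young normal mean, and the highest library of each dwarf group, at 5.35, lay above 3 of the 5 old normal libraries. Of all 64620 pairs of tested miRNAs, 8.25% had ratios that did not overlap between old and young normal serum, 14.9% between old dwarf and old normal, 2.23% between young dwarf and young normal and 1.38% between old and young dwarf.

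The ratio of miR-25-3p to miR-93-5p had the same order. In normal serum its mean was 1.96 ± 0.22 at the young and 2.39 ± 0.12 at the old age, and in dwarf serum 2.003 ± 0.27 and 1.99 ± 0.33. Old and young normal libraries did not overlap, with a gap of 0.06. For miR-93-5p to miR-106b-5p the means were 2.82 ± 0.12, 3.08 ± 0.11, 2.79 ± 0.19 and 2.86 ± 0.09 in the same order of groups, which is about 7.05, 8.45, 6.94 and 7.27 reads of miR-93-5p for each read of miR-106b-5p. The normal ages did not overlap here either, by a gap of 0.004, beside the 8.25% of all pairs given above. Relative to miR-93-5p, old normal serum thus had the highest mean of miR-25-3p and the lowest of miR-106b-5p.

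The 2 arms of Mir106b come from 1 hairpin, and their ratio was the most variable of the 6 between members. The log2 ratio of miR-106b-3p to miR-106b-5p was 0.61, -1.10, -0.31, 0.39 and -0.34 in young normal serum and 0.09, 0.36, -0.11, 0.18 and 0.32 in old normal serum. It was 0.48, -0.34, -1.56, -0.64 and -0.41 in young dwarf serum and -0.61, -0.27, -0.01, -0.83 and -0.94 in old dwarf serum. The 5p arm thus exceeded the 3p arm in all 5 old dwarf libraries and in 1 of 5 old normal libraries, with overlapping ranges. Over all 20 libraries the SD of this ratio was 0.58. For miR-93-5p to miR-106b-5p, 2 miRNAs of different hairpins with 1 seed, it was 0.17.

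**Figure D3:**
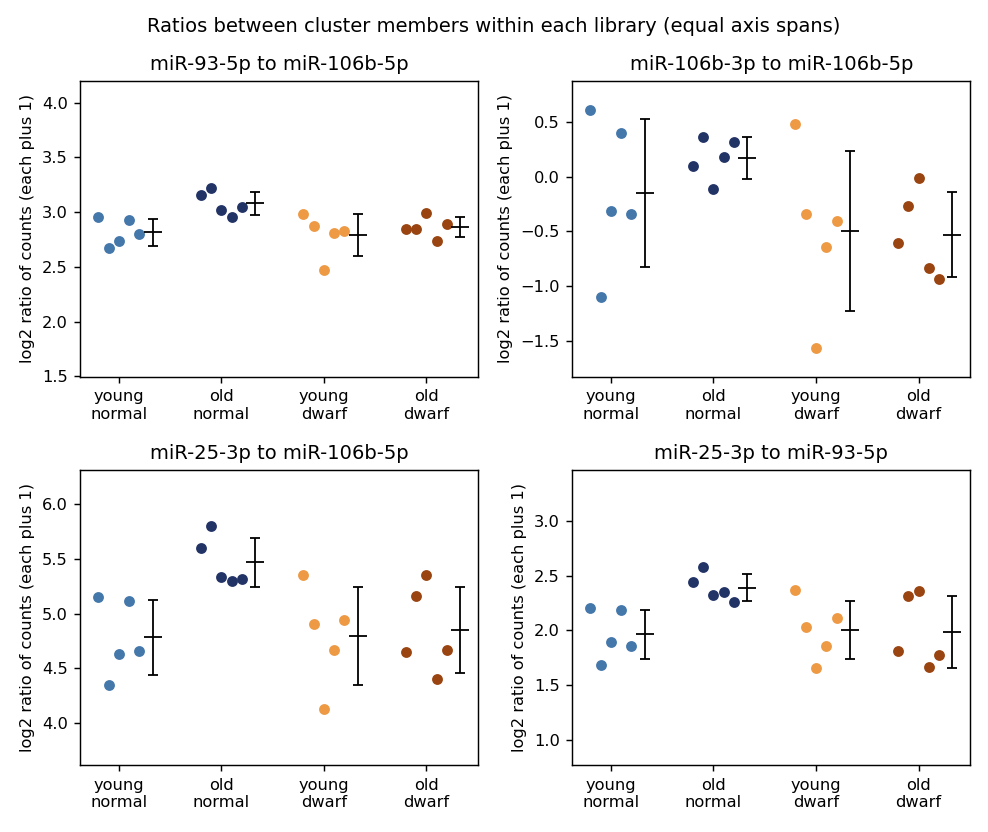
Log2 ratios of counts (each plus 1) between cluster members in each library, by group, with the mean and SD of 5 libraries; all 4 panels span the same range of log2 units. The ratio of miR-25-3p to miR-106b-5p runs from 5.30 to 5.80 in old normal and from 4.35 to 5.15 in young normal serum, and the arm ratio of Mir106b has the widest spread.

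Across the 20 libraries the members from the 5p arms went together, and the 2 arms of Mir106b varied apart. The Pearson r of log2 CPM was 0.90 between miR-106b-5p and miR-93-5p and 0.85 between miR-106b-3p and miR-25-3p, but 0.26 between the 2 arms of Mir106b and 0.31 between miR-106b-5p and miR-25-3p. Spearman's rho for these pairs was 0.81, 0.86, 0.14 and 0.22. The remaining pairs, miR-93-5p with miR-25-3p and with miR-106b-3p, had r of 0.65 and 0.56. miR-17-5p, a 5p arm with the seed of miR-106b-5p and miR-93-5p, had r of 0.54 and 0.74 with them. Its r was 0.77 with miR-106b-3p and 0.78 with miR-25-3p, so with TMM factors a shared seed or arm did not mark its closest pairs. With plain library totals the order was the reverse. The r of miR-17-5p was then 0.87 with miR-106b-5p and 0.87 with miR-93-5p, but 0.46 with miR-106b-3p and 0.69 with miR-25-3p. All points share libraries, depth and composition, so these values are descriptions. On plain library totals r was 0.99 between miR-106b-5p and miR-93-5p, 0.73 between miR-106b-3p and miR-25-3p, 0.34 between the arms and 0.67 between miR-106b-5p and miR-25-3p, so the size of r between miR-25-3p and miR-106b-5p depends on the scaling. The SD of the log2 ratio, which no scaling can change, was 0.17 for miR-106b-5p with miR-93-5p, 0.30 for miR-106b-3p with miR-25-3p, 0.29 for miR-93-5p with miR-25-3p, 0.44 for miR-106b-5p with miR-25-3p, 0.45 for miR-106b-3p with miR-93-5p and 0.58 for the 2 arms. By this measure miR-25-3p was about as near to miR-93-5p as to miR-106b-3p. The 2 arms of Mir93 had r of 0.28 and an SD of 0.62. Those of Mir25 had r of 0.71 and an SD of 0.75, and each of these hairpins has a rare arm. Over 84 hairpins with both arms tested, rare arms included, the median SD was 0.59, near that of Mir106b. Among the 12 with both arms at 100 CPM or more the median was 0.50, and Mir106b ranked 2nd from the highest.

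The miRNAs closest in pattern were different for the 2 arms of Mir106b. Among 286 candidates with at least 10 CPM in some group, the 3 with the highest r to miR-106b-5p were miR-15a-5p (0.94), miR-451a (0.93) and miR-144-5p (0.89). miR-451a and miR-144-5p come from 1 erythroid cluster and are abundant in red blood cells. For miR-93-5p they were miR-16-5p (0.93), miR-15a-5p (0.90) and miR-144-3p (0.89). For miR-106b-3p they were miR-421-3p (0.92), miR-186-5p (0.92) and miR-30e-5p (0.87), and for miR-25-3p they were miR-421-3p (0.91), miR-3074-5p (0.89) and miR-140-3p (0.87). The r of miR-451a was 0.06 with miR-106b-3p and 0.00 with miR-25-3p. On library totals the r of miR-25-3p with miR-3074-5p was 0.25 and that with miR-451a 0.64, so these values of r depend on the scaling too. By the SD of the log2 ratio over 289 miRNAs, miR-106b-5p was closest to miR-15a-5p (0.14) and miR-93-5p to miR-16-5p (0.12), while miR-106b-3p was closest to miR-186-5p (0.25) and miR-25-3p to miR-421-3p (0.15). By the same measure miR-451a ranked 11th for miR-106b-5p (0.27) and 133rd for miR-25-3p (0.69).

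**Figure D4:**
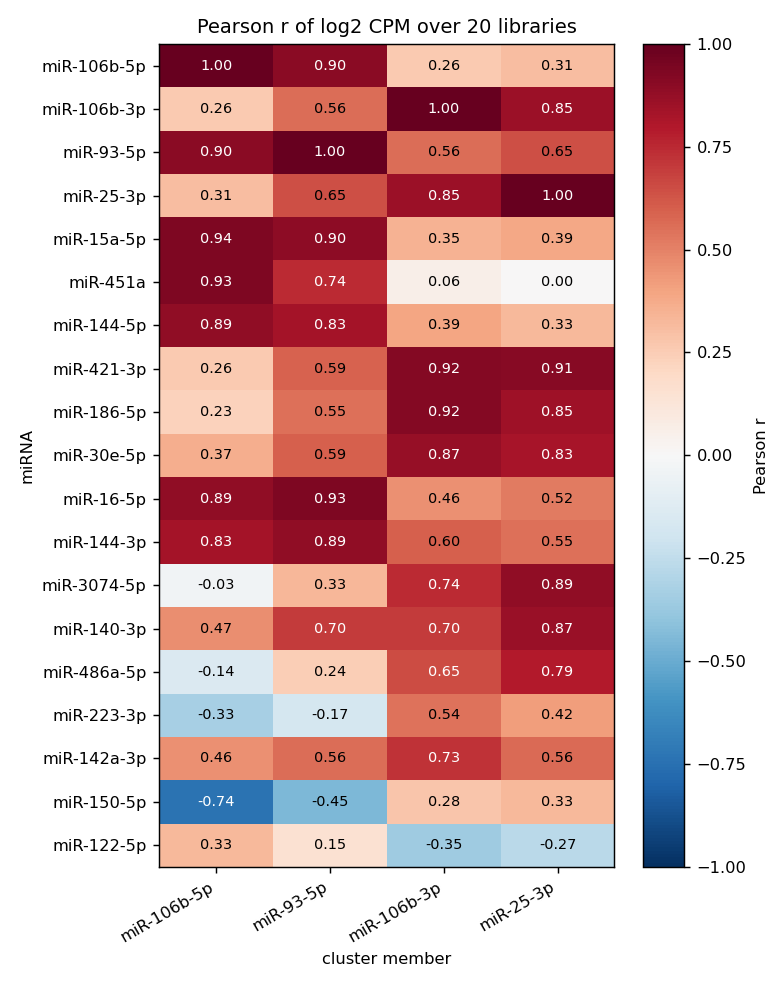
Pearson r of log2 CPM over 20 libraries between each cluster member (columns) and the members, their closest miRNAs and the blood cell and liver miRNAs (rows), with the value in each cell. miR-451a has r of 0.93 with miR-106b-5p and 0.06 with miR-106b-3p.

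Of the 5 listed erythroid markers, 3 had their lowest mean in old normal serum, as miR-106b-5p did: miR-451a, miR-144-3p and miR-144-5p. A common index of red cell lysis in serum compares miR-451a with miR-23a-3p, as a log2 ratio. It was 5.45 ± 0.61 at the young and 4.30 ± 0.70 at the old age in normal mice, and 5.40 ± 0.43 and 5.38 ± 0.44 in dwarf mice (SD, n = 5). miR-451a fell by 0.99 on the log2 scale from young to old normal serum (edgeR adjusted p = 0.0198), and its change between the old genotypes was 0.73 (adjusted p = 0.0550). With the index as a covariate in the edgeR fit, the log2 fold change of miR-106b-5p was 0.045 between the normal ages and -0.085 between the old genotypes. That of miR-93-5p was 0.18 and -0.19. The covariate also took the calls over all miRNAs from 56 to 1 (normal ages) and from 95 to 0 (old genotypes). The smaller values were thus not particular to the members, and the index itself holds miR-451a. The other 2 erythroid markers were miR-486a-5p and miR-486a-3p. miR-486a-5p, the most abundant, had means of 260831 CPM in young normal and 392032 in old normal serum, and miR-486a-3p had 1365 and 1319. The r of miR-486a-5p with miR-106b-5p was -0.14, and on plain library totals it was -0.76, so its size depends on the scaling. All 5 listed erythroid markers were detected, and their summed level ran from 183203 to 449456 CPM (young normal), 345146 to 519321 (old normal), 154043 to 325943 (young dwarf) and 244952 to 499469 (old dwarf). Most of this sum was miR-486a-5p, while miR-451a had means of 36605 CPM in young and 18409 in old normal serum. The ratio of miR-106b-5p to miR-451a was not constant, at -5.20 ± 0.17 in young and -4.77 ± 0.18 in old normal serum (log2). These 2 groups did not overlap, as was so for 8.25% of all pairs of tested miRNAs. The part of red cell RNA in these levels was not tested.

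Lymphocyte miRNAs also differed between the same groups. All 3 lymphocyte markers (miR-150-5p, miR-342-3p and miR-155-5p) rose from young to old normal serum by the edgeR test, which called 15.6% of all miRNAs there. They were also lower in old dwarf than in old normal serum, where the test called 26.4%. Their summed level ran from 611 to 1887 CPM at the young and 1580 to 4963 at the old age in normal mice, and from 645 to 1426 and 667 to 1444 in dwarf mice. The r of miR-150-5p was -0.74 with miR-106b-5p, -0.45 with miR-93-5p, 0.28 with miR-106b-3p and 0.33 with miR-25-3p. On plain library totals these were -0.68, -0.65, -0.15 and -0.33, so the sign for miR-106b-3p and miR-25-3p depends on the scaling. Of 5 platelet and myeloid markers 1 passed, miR-191-5p, at 1.10 between the normal ages (SE 0.37, edgeR adjusted p = 0.0465) and -1.10 between the old genotypes (adjusted p = 0.0337). Of 3 liver markers, and of 2 muscle markers tested of 3 listed, 0 passed in these comparisons. None of the listed markers of any kind passed in the other 2 pairwise comparisons. The test called 0% (young genotypes) and 0.556% (dwarf ages) of all miRNAs there. All 3 liver markers had higher means in young dwarf than in young normal serum. The log2 fold changes were 2.54 for miR-802-5p (95% interval 1.07 to 4.01), 1.37 for miR-192-5p (0.53 to 2.22) and 1.63 for miR-122-5p (-0.84 to 4.10). The part of the listed markers in the levels of the members was not tested.

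Among miRNAs with the members' seeds, the cluster supplied most reads of one family and shared the other with miR-92a-3p. In the family of miR-106b-5p and miR-93-5p, which has 7 names, 6 of them with reads, these 2 gave 93.7% ± 0.84 of the reads over 20 libraries, between 92.2% and 94.96% in each library. Over all libraries miR-93-5p alone held 82.5% and miR-106b-5p 11.3%, while miR-17-5p held 3.73% and miR-20a-5p 2.31%. In the family of miR-25-3p, which has 6 names, 5 of them with reads, miR-25-3p gave 49.5% ± 10.6 (young normal), 33.8% ± 7.03 (old normal), 50.3% ± 6.64 (young dwarf) and 52.1% ± 8.79 (old dwarf; SD, n = 5). The rest was almost all miR-92a-3p. Old normal libraries, at 24.5% to 42.8%, had a range that held 1 young normal library (32.2%), 1 young dwarf library (40.7%) and 2 old dwarf libraries (42.6% and 42.7%).

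**Figure D5:**
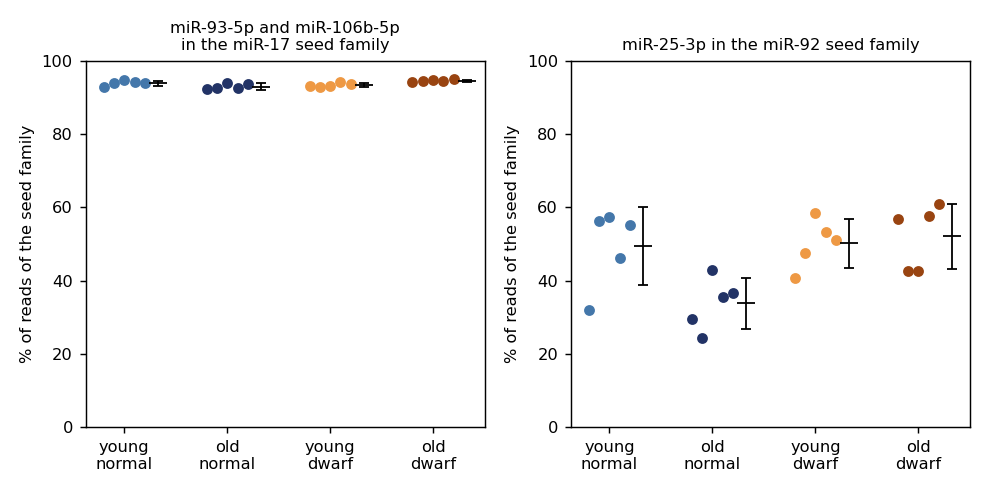
Share of the reads of each seed family that came from the cluster, in every library, with the mean and SD of 5 libraries (axis from 0 to 100%). miR-93-5p and miR-106b-5p hold 92.2% to 94.96% of their family in every library, while the share of miR-25-3p has its lowest mean, 33.8%, in old normal serum.

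The paralogs themselves did not pass the edgeR test. Of the other miR-17 seed miRNAs 3 of 5 were tested (miR-6383 had 0 reads), of the other miR-92 seed miRNAs 4 of 5, and of the remaining miRNAs of the paralog clusters 6 of 8, and 0 were called in any of the 5 comparisons. miR-92a-3p had means of 30581 CPM at the young and 57409 at the old age in normal mice, and of 26002 and 27882 in dwarf mice. Its log2 fold change was 0.91 (SE 0.44, unadjusted p = 0.0515) for old against young normal and -1.04 (SE 0.44, unadjusted p = 0.0280) for old dwarf against old normal. The values for miR-25-3p, with the same seed, were 0.07 and -0.10 in these comparisons. miR-17-5p had 298 and 287 CPM in normal mice and 286 and 274 in dwarf mice, young before old, and log2 fold changes of -0.06 and -0.07. miR-20a-5p had 193, 162, 198 and 144 CPM in the same order of groups, and log2 fold changes of -0.26 and -0.17. For old against young dwarf the change of miR-20a-5p was -0.46 (SE 0.21, edgeR unadjusted p = 0.0398, adjusted p = 0.997). The 2 dwarf groups did not overlap for it, as was so for 1.67% of all miRNAs. The change of miR-17-5p there was -0.07, with overlap. The rare arms of the cluster had changes of 0.44 (miR-93-3p) and 0.41 (miR-25-5p) between the normal ages and of -0.63 and -0.94 between the old genotypes, with standard errors of 0.37 to 0.55.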

How the data were processed

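Serum small RNA was extracted with miRNeasy and made into TruSeq small RNA libraries, per the labels' protocols. Per the submitters' processing notes, Bowtie 0.12.8, bedtools, edgeR and the GRCm38 build were used, with no roles given. The deposited values used are whole-number read counts per mature miRNA and precursor, per the file headers; a name with several rows was read from the row with the highest total. The authors' deposited RPM columns were not used in tests, and 0 sample columns were unused. The authors' deposited miRDeep2 report gives a score and pooled read counts per hairpin.

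edgeR 4.0.16 (limma 3.58.1, R 4.3.3) fitted quasi-likelihood models to all 20 libraries, with TMM factors, filterByExpr at a minimum count of 10, 1 coefficient per group and Benjamini-Hochberg adjustment over 360 miRNAs. At least 99.9% of reads in each library passed the filter. The common biological coefficient of variation was 47.5%. DESeq2 1.42.0, other scalings, filters and row choices, left-out libraries, a replicate block and a red cell index as covariate were alternatives. Scripts were tested on simulated data. Members, lists and tests were chosen with earlier results of these data known. The miRNAs named are the members, their other arms, miR-17-5p, miR-20a-5p and miR-92a-3p, the 3 closest in pattern to each member, listed markers and any called list member. Annotation was GENCODE M21, and sequences were from RefSeq (1623 of 1915 names matched). The marker lists hold 5 erythroid, 5 platelet and myeloid, 3 lymphocyte, 3 liver and 3 muscle miRNAs.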

Additional observations from a re-analysis of the deposited data

How the results depend on the processing

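The number of members called, 0 in each comparison, moved for 2 comparisons. For old dwarf against old normal it was 1 with RLE factors (32.8% of all miRNAs called), 2 with library totals (33.1%) and 1 with DESeq2 (38.2%), and for old against young normal it was 1 with RLE factors (18.1%), 3 with library totals (29.4%), 1 with DESeq2 (32.9%) and 1 with summed precursor rows (17.9%). Leaving out each library in turn gave 0 to 0 for the old genotypes and 0 to 1 for the normal ages, the 1 being without young normal replicate 1. miR-106b-5p passed with RLE factors in both (0.57, edgeR adjusted p = 0.0405, and -0.63, adjusted p = 0.0376) and with summed rows for the normal ages (-0.58, adjusted p = 0.0497). The causes were not tested.

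Some log2 fold changes, 0 of them called, changed sign. With library totals, young dwarf against young normal gave 0.10 (miR-106b-5p), 0.070 (miR-93-5p) and 0.11 (miR-25-3p); old dwarf against old normal 0.025 (miR-106b-3p) and 0.11 (miR-25-3p); old against young normal -0.31 (miR-25-3p); and old against young dwarf -0.38 (miR-106b-5p), -0.29 (miR-93-5p) and -0.31 (miR-25-3p). With the red cell index as covariate, old dwarf against old normal gave -0.085 (miR-106b-5p) and -0.19 (miR-93-5p), old against young normal 0.045 and 0.18, and the difference of the age effects -0.046 (miR-93-5p) and -0.17 (miR-25-3p). With no filter, miR-25-3p between the normal ages was -0.052 and miR-106b-5p between the dwarf ages -0.052. With only the 2 compared groups, miR-25-3p between the normal ages was -0.11. With upper-quartile factors, miR-106b-3p between the dwarf ages was 0.055 and the difference of age effects for miR-25-3p was -0.029. With identical names counted once, miR-106b-3p between the dwarf ages was 0.013. Leaving out libraries in turn gave ranges that crossed 0 for miR-25-3p in young dwarf against young normal (-0.28 to 0.035), old against young normal (-0.067 to 0.25), old against young dwarf (-0.045 to 0.25) and the difference of the age effects (-0.13 to 0.18), and between the dwarf ages for miR-106b-5p (-0.045 to 0.13) and miR-106b-3p (-0.21 to 0.24).

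Over all tested miRNAs, the 95 called for old dwarf against old normal became 63 with only the 2 groups, 0 with the index as covariate and, with old dwarf replicate 1, 2, 4 or 5 left out, 53, 143, 55 or 51. The 56 for old against young normal became 9 higher and 97 lower (from 18 and 38) with library totals, 117 with DESeq2, 34 with only the 2 groups, 1 with the covariate and 123, 37, 29 and 37 without young normal replicates 1, 3 and 5 and old normal replicate 1. With upper-quartile factors 33 rose and 36 fell between the normal ages. The 0 for young dwarf against young normal became 6 with DESeq2 and 1 with no filter or with the covariate. The 2 for old against young dwarf became 0 with library totals or the 2 groups alone and 1 with summed rows, and the 2 for the difference of the age effects became 20 with DESeq2, 13 with no filter, 1 with RLE factors and 0 with library totals, upper-quartile factors, summed rows or the covariate. Left-out libraries gave 0 to 2 and 0 to 3.

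Replicate numbers are not labelled as shared mice or days. Same-numbered libraries had deviations with r from -0.68 to 0.81 and correlated best with their own number in 0 to 2 of 5 cases. With a replicate block, 0 members were called in each comparison, the counts over all miRNAs were 92 (old genotypes), 38 (normal ages), 0 (dwarf ages) and 0 (difference of age effects), and miR-106b-3p between the dwarf ages was 0.0086. Depth limits the rare arms (miR-25-5p had 3 reads in a library).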

Other observations

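The 2 arms of Mir106b can be set beside those of other hairpins. Of 84 hairpins with both arms tested, the median r between arms over 20 libraries was 0.73, and Mir106b, at 0.26, ranked 18th from the lowest. By the SD of the log2 arm ratio, which does not depend on the scaling, Mir106b, at 0.58, was near the median of 0.59 and ranked 47th from the highest. Of the 12 with both arms at 100 CPM or more, which include miR-486a and miR-486b with the same counts, the median r was 0.79 and Mir106b ranked 2nd from the lowest, after let-7d at -0.30. Its SD ranked 2nd from the highest there. miR-144 and miR-15b, each at 0.94, had the highest r among them. miR-17-3p, the other arm of miR-17-5p, was 4th closest to miR-106b-3p by the SD of the log2 ratio, at 0.33. The arm ratio of Mir93, miR-93-5p to miR-93-3p on the log2 scale, was 6.75 ± 0.19 at the young and 6.03 ± 0.33 at the old age in normal mice. It was 6.73 ± 0.60 and 7.08 ± 0.74 in dwarf mice (SD, n = 5). Old and young normal libraries did not overlap, beside 8.25% of all pairs of tested miRNAs. The rare arm, miR-93-3p, had 123 to 260 reads in young and 72 to 255 in old normal libraries.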
